A study of Mus musculus with 6 samples.

Results

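The genes described here are 9 transcription factor genes of the pancreatic progenitor and of the trunk epithelium, *Pdx1*, *Nkx6-1*, *Nkx6-2*, *Sox9*, *Onecut1*, *Onecut2*, *Prox1*, *Foxa1* and *Foxa2*. They were chosen by name as known regulators of pancreas development, with earlier results of these data known, and they are 9 of the 37224 genes in the deposited table. RNA of whole embryonic pancreas from wild-type (wt) C57/Bl6J mice was sequenced at 13.5 and 15.5 days post coitum (dpc), with 3 samples per stage. The study's methods state that every sample pooled the pancreata of up to 3 embryos and call the samples independent biological replicates. No allele, transgene or treatment was used in either stage. The comparison asks how the levels of the progenitor regulators change over the secondary transition, the period in which acinar, ductal and endocrine cells form.

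The pancreatic epithelium arises from multipotent progenitors, which branch and then separate into tips and a trunk. Tip cells give rise to acinar cells under *Ptf1a*, whereas trunk cells keep *Nkx6-1* and *Sox9* and give rise to ducts and, through *Neurog3*, to endocrine cells. *Nkx6* and *Ptf1a* factors act against each other in this separation. The Foxa and Onecut factors act in endoderm and upstream of *Pdx1* and *Neurog3*, and *Prox1* is a homeobox factor of early pancreatic and hepatic endoderm that also defines lymphatic endothelium.

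Of the 9 genes, 8 had enough counts to be tested and 4 changed between the stages. *Nkx6-2* and *Foxa2* rose from 13.5 to 15.5 dpc, and *Nkx6-1* and *Sox9* fell. *Pdx1*, *Onecut1*, *Onecut2* and *Prox1* did not pass the test, and *Foxa1* was near its detection limit. Over all 15578 genes tested, 22.3% changed at an adjusted p of 0.05 or less, 11.6% being higher and 10.7% lower at 15.5 dpc, so calls were common in this comparison. The stages did not overlap for 6 of the 8 tested genes, against 46.4% of all genes tested. In 2 of them 15.5 dpc was higher (22.8% of all genes) and in 4 lower (23.6%). The median log2 fold change of the 8 was -0.19, beside -0.01 over all genes tested. *Onecut2* passed the count filter only through its 13.5 dpc samples, so these counts and this median describe the genes that passed and not all 9.

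**Figure D1:**
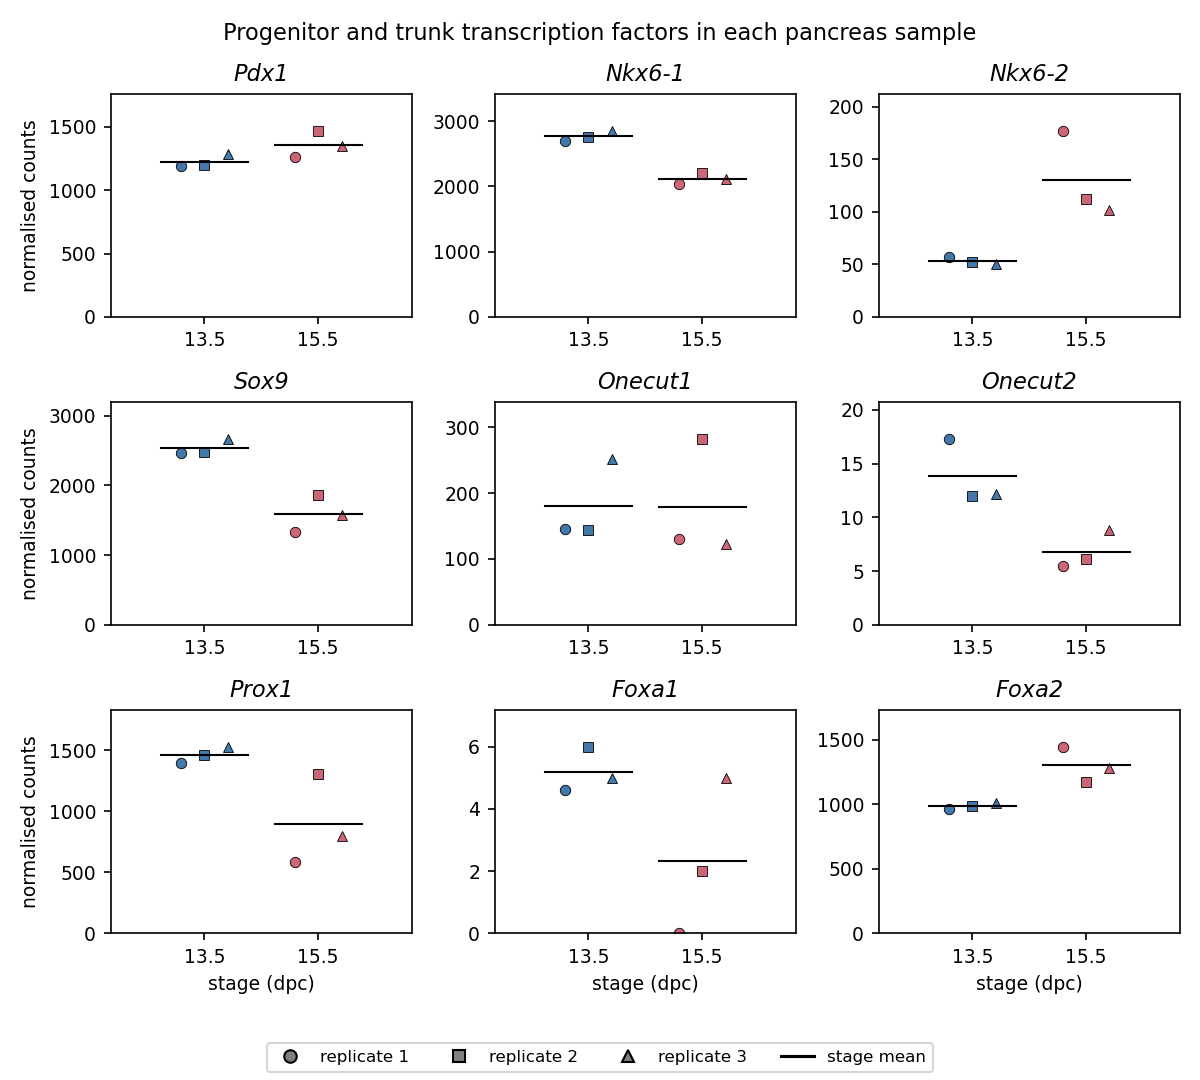
Normalised counts of each gene (y axis, from 0, scaled per gene) at 13.5 dpc (blue) and 15.5 dpc (red). Each symbol is 1 sample and each line a stage mean. The stages are separate for *Nkx6-1*, *Nkx6-2*, *Sox9*, *Onecut2*, *Prox1* and *Foxa2*, and the 15.5 dpc samples of *Prox1* spread from 584.0 to 1302.8.

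Each 13.5 dpc sample held 12895732 to 16389237 counts in total, and each 15.5 dpc sample 10546028 to 12491550. Normalised counts are counts scaled to a common effective library size, and fold changes are 15.5 over 13.5 dpc. Replicates 1 and 2 of 15.5 dpc stood apart from each other by gene length. Across genes, the deviation of replicate 1 from its stage mean correlated with exon length with a Spearman rho of -0.567, and that of replicate 2 with a rho of 0.583, over 15578 genes that are not independent replicates. The other 4 samples had rho values of -0.24 to 0.338. For the 8 tested genes, values without either sample and values with a length trend removed from every sample are given below. The trend removed was that of each sample's deviation from the mean over all 6 samples, not from its stage mean. Its removal thus also takes out any difference between the stages that goes with gene length. RNA was taken from whole tissue, so a lower level may be fewer cells of a type or less RNA per cell, which cannot be told apart here.

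The promoter sequences of the 2 genes that rose are shown for reference, each as the 250 bases upstream of a RefSeq start (GRCm38.p6, the build also called mm10). They are printed 5′ to 3′ on the strand of the gene. Both genes lie on the minus strand, and each printed window ends at the base next to the first exon of the annotation used for counting. Capitals mark matches to a fixed set of short motifs on either strand.
*Nkx6-2*, chr7:139582798-139583047: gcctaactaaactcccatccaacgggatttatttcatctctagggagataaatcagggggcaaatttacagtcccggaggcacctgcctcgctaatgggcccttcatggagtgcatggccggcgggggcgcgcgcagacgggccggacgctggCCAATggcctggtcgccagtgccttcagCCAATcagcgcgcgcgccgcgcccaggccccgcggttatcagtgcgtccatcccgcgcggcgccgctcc
*Foxa2*, chr2:148046970-148047219: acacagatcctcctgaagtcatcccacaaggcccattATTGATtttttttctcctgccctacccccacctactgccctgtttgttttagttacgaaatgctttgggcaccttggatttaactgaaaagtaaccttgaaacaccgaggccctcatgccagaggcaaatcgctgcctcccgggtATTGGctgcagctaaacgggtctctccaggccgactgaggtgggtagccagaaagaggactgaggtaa

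The *Nkx6-2* window holds the CCAAT box letters CCAAT at positions -97 and -69 from the start. The *Foxa2* window holds CCAAT on the opposite strand at -68 and the Onecut letters ATCAAT on the opposite strand at -213. CCAAT occurs in 33.8% and ATCAAT in 6.72% of all 32851 windows of this length. The other letters searched were TGTTTAC for Foxa (3.17% of windows), TAATTA for homeobox factors (4.84%), AACAAT for Sox (9.42%), GTGGGAA for Rbpj (5.42%), GGAATG for Tead (12.6%) and TATAAA for the TATA box (12.4%), and neither printed window held them. The GC content was 65.2% for *Nkx6-2* and 50.8% for *Foxa2*, beside a median of 52.4% over all windows. The promoter table gives 3 starts for *Foxa2*, of which the outermost is shown. The windows of the other two had a GC content of 67.2% and 54.4%, and the latter held TATAAA on the opposite strand at -208. A match describes letters only, and binding was not measured.

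Pdx1 is the homeobox factor required for the pancreas to form and later for beta cell function. *Pdx1* (chr5:147269959-147278008, plus strand, 2 exons) had 1193.6, 1197.8 and 1284.3 normalised counts at 13.5 dpc and 1264.9, 1470.5 and 1347.4 at 15.5 dpc. The lowest 15.5 dpc sample lay below the highest 13.5 dpc sample, so the stages overlapped. The log2 fold change was 0.15 (standard error, SE, 0.09), with an edgeR adjusted p of 0.266. With the length trend removed it was 0.23 with an adjusted p of 0.0285 in the same edgeR test, which is past the threshold. Scaled by library size alone it was -0.055, while that scaling put the median of all genes at -0.22, so *Pdx1* stayed above that median. Without replicate 1 of 15.5 dpc the value was 0.20, and without replicate 2 it was 0.11, neither of which passed.

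Nkx6-1 keeps trunk cells from the acinar fate and is later a beta cell factor. *Nkx6-1* (chr5:101658139-101665226, minus strand, 3 exons) had 2692.5, 2761.6 and 2855.2 normalised counts at 13.5 dpc and 2042.7, 2206.8 and 2113.0 at 15.5 dpc. Every 15.5 dpc sample was below every 13.5 dpc sample, and the spread was small, with a coefficient of variation (CV) of 2.95% at 13.5 dpc and 3.88% at 15.5 dpc. Its mean fell from 2770 ± 81.7 to 2121 ± 82.3 (SD, n = 3), a log2 fold change of -0.39 (SE 0.08) with an edgeR adjusted p of 0.0178. It was -0.36 without replicate 1 and -0.40 without replicate 2 of 15.5 dpc, and -0.37 with the length trend removed, all past the threshold. Without any one of the 13.5 dpc samples or without replicate 3 of 15.5 dpc, the adjusted p lay between 0.081 and 0.093.

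The paralogue *Nkx6-2* rose. It shares functions with *Nkx6-1* in the trunk. *Nkx6-2* (chr7:139579377-139582797, minus strand, 4 exon blocks) had 56.5, 52.3 and 50.3 normalised counts at 13.5 dpc and 177.1, 112.5 and 102.0 at 15.5 dpc. All 15.5 dpc samples were above all 13.5 dpc samples, and replicate 1 was the highest. The mean rose from 53.0 ± 3.17 to 131 ± 40.7 (SD, n = 3), a fold of 2.45 and a log2 fold change of 1.29 (SE 0.23) with an edgeR adjusted p of 0.00883. Without replicate 1 of 15.5 dpc it was 1.02, without replicate 2 it was 1.4, and with the length trend removed it was 1.14, all past the threshold. The adjusted p was 0.0501 without replicate 3 of 13.5 dpc. Of its exon bases, 245 lie opposite *Inpp5a* on the other strand, and counting was read as strand-specific. The third family member, *Nkx6-3*, had 4.3 to 6.4 normalised counts in the 6 samples and was not tested.

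The ratio of *Nkx6-2* to *Nkx6-1* counts within a sample does not depend on scaling. On the log2 scale, the 13.5 dpc samples gave -5.57, -5.72 and -5.83, whereas the 15.5 dpc samples gave -3.53, -4.29 and -4.37. The stages did not overlap, and the mean difference was 1.64. The two-sided exact permutation p was 0.1, the smallest that 3 samples against 3 allow, and 0.15 after adjustment over the 6 ratios compared. Per kilobase of exon (per kb), the level of *Nkx6-1* was 822 and that of *Nkx6-2* 27.8 normalised counts at 13.5 dpc, and 630 and 68.5 at 15.5 dpc, so *Nkx6-1* stayed the higher of the pair.

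Sox9 maintains the progenitor pool and later the ducts, and it also acts in cartilage and in neural crest. *Sox9* (chr11:112782224-112787760, plus strand, 3 exons) had 2469.3, 2483.8 and 2668.5 normalised counts at 13.5 dpc and 1335.5, 1866.2 and 1570.2 at 15.5 dpc. The stages did not overlap, and the 15.5 dpc samples were more spread, with a CV of 16.7% against 4.37%. The mean fell from 2541 ± 111 to 1591 ± 266 (SD, n = 3), a fold of 0.626 and a log2 fold change of -0.67 (SE 0.13) with an edgeR adjusted p of 0.0123. Values were -0.56 without replicate 1 and -0.79 without replicate 2 of 15.5 dpc, and -0.61 with the length trend removed, all past the threshold. The adjusted p was 0.0545 to 0.0634 without any one of the 13.5 dpc samples or without replicate 3 of 15.5 dpc.

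Markers of other Sox9-expressing cells fell between the same stages. Of 5 tested cartilage genes, 4 fell and none rose, from *Sox5* at -1.05 and *Acan*, the cartilage proteoglycan, at -1.04 to *Col2a1*, the main cartilage collagen, at -2.48, and the median of the 5 was -1.05. The summed level of the cartilage list went from 4348 to 4854 normalised counts at 13.5 dpc to 1017 to 1971 at 15.5 dpc, and *Matn1* was at or under 3 counts in every sample. Of 10 neuron and glia genes, 5 fell and 1 rose, the latter being *Ret* at 1.08, with a median of -0.52 and a summed level of 2189 to 2245 at 13.5 dpc and 2265 to 2855 at 15.5 dpc. Without *Ret* the sums were 1460 to 1527 and 1001 to 1089. The part of these cells in the fall of *Sox9* was not tested. Its nearest relatives also fell, *Sox8* by 0.91 (edgeR adjusted p 0.0398) and *Sox10*, a neural crest and glial factor, by 0.43 (edgeR adjusted p 0.0406) on the log2 scale. Without any one of the 13.5 dpc samples or without replicate 3 of 15.5 dpc neither passed, with adjusted p values of 0.0925 to 0.135 for *Sox8* and 0.112 to 0.158 for *Sox10*. *Sox10* also did not pass without a count filter. Over all genes tested, 10.7% were called lower.

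*Sox9* and *Nkx6-1* were set against *Ptf1a*, the acinar and early progenitor factor, which rose by a log2 fold change of 2.07 (SE 0.20, edgeR adjusted p 0.00101). The log2 ratio of *Sox9* to *Ptf1a* counts was 2.04, 1.96 and 2.03 at 13.5 dpc and -1.37, -0.07 and -0.68 at 15.5 dpc. The ratio of *Nkx6-1* to *Ptf1a* was 2.17, 2.11 and 2.13 at 13.5 dpc and -0.76, 0.17 and -0.25 at 15.5 dpc. Neither ratio overlapped between the stages, with mean differences of -2.72 for *Sox9* and -2.42 for *Nkx6-1*. The log2 ratio of *Pdx1* to *Sox9* was -1.05, -1.05 and -1.06 at 13.5 dpc and -0.08, -0.34 and -0.22 at 15.5 dpc, a difference of 0.84. Each of these 3 ratios reached the exact permutation minimum of 0.1 (0.15 adjusted over the 6). The ratio of *Sox9* to *Neurog3*, the endocrine progenitor factor, overlapped between the stages, with a difference of -0.36 and an exact permutation p of 0.2.

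**Figure D2:**
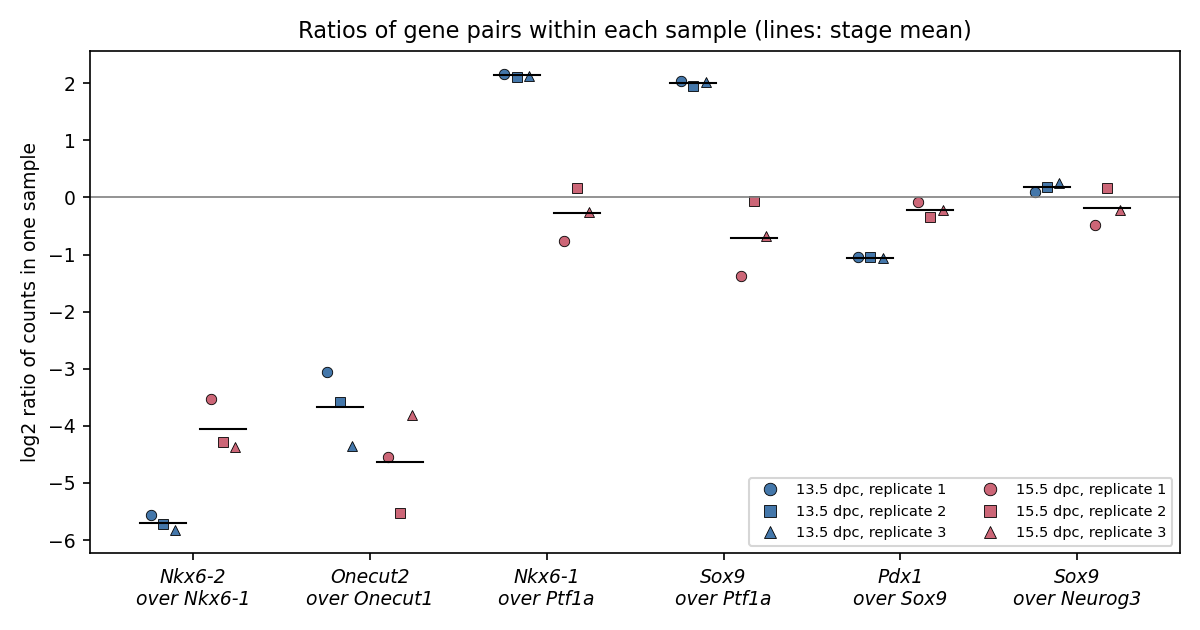
Log2 ratio of the counts of 2 genes in the same sample (y axis) for the 6 pairs, at 13.5 dpc (blue) and 15.5 dpc (red). Symbols are samples and lines stage means. The ratios of *Sox9* and of *Nkx6-1* to *Ptf1a* lie near 2 in all 13.5 dpc samples and between -1.37 and 0.17 at 15.5 dpc.

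Prox1 is required for normal growth of the pancreatic and hepatic epithelium. *Prox1* (chr1:190118038-190170680, minus strand, 7 exon blocks) had 1391.4, 1461.0 and 1526.4 normalised counts at 13.5 dpc and 584.0, 1302.8 and 798.3 at 15.5 dpc. All 15.5 dpc samples were below all 13.5 dpc samples, and replicate 2 came close to the earlier stage at 2.23 times the level of replicate 1. The log2 fold change was -0.70 (SE 0.26), with an edgeR adjusted p of 0.0921, so the difference did not pass at this spread. It was -1.06 with an edgeR adjusted p of 0.000666 without replicate 2 of 15.5 dpc, and -0.47 with an edgeR adjusted p of 0.0723 without replicate 1. With the length trend removed it was -0.50 with an edgeR adjusted p of 0.0302. *Prox1* is, at 8323 exon bases, the longest of the genes that were well counted, and 133 of these bases lie opposite *Prox1os*.

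Lymphatic and hepatic markers were measured beside *Prox1*. Of 5 lymphatic endothelium genes, 0 passed the adjusted p of 0.05 with edgeR, 2 had an unadjusted p under 0.05 and 0 passed with DESeq2, and their summed level was 831 to 991 normalised counts at 13.5 dpc and 882 to 1201 at 15.5 dpc. Of 8 liver genes, 3 fell and none rose, from *Afp*, the fetal serum protein, at -0.66 to *Serpina1a*, a liver protease inhibitor, at -2.38. Their summed level was 6208 to 6940 at 13.5 dpc and 5904 to 10970 at 15.5 dpc. Most of it was *Ttr*, and the other 7 genes summed to 1202 to 1830 at 13.5 dpc and 758 to 1139 at 15.5 dpc. The part of these cells in the *Prox1* values was not tested. *Prox2*, the paralogue, was low, at 24.9 to 34.8 normalised counts, with a log2 fold change of 0.12 (edgeR adjusted p 0.669).

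The order of the 15.5 dpc samples differed between genes of the group. Among the 7 with a mean above 50 normalised counts, replicate 2 was the highest 15.5 dpc sample for *Pdx1*, *Nkx6-1*, *Sox9*, *Onecut1* and *Prox1*, which have 3368 to 8323 exon bases. Replicate 1 was the highest for the 2 with the fewest exon bases, *Nkx6-2* (1906 bases) and *Foxa2* (2370 bases). By the bases that can be counted *Onecut1* is shorter than both, at 1637 bases as described with that gene, and there the order by length does not hold. Removing the length trend narrowed the log2 range of the 15.5 dpc samples from 1.16 to 0.63 for *Prox1*, from 0.30 to 0.06 for *Foxa2*, from 0.22 to 0.08 for *Pdx1*, from 0.48 to 0.37 for *Sox9* and from 0.80 to 0.59 for *Nkx6-2*. It left *Onecut1* at 1.17 from 1.19 and *Nkx6-1* at 0.13 from 0.11.

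**Figure D3:**
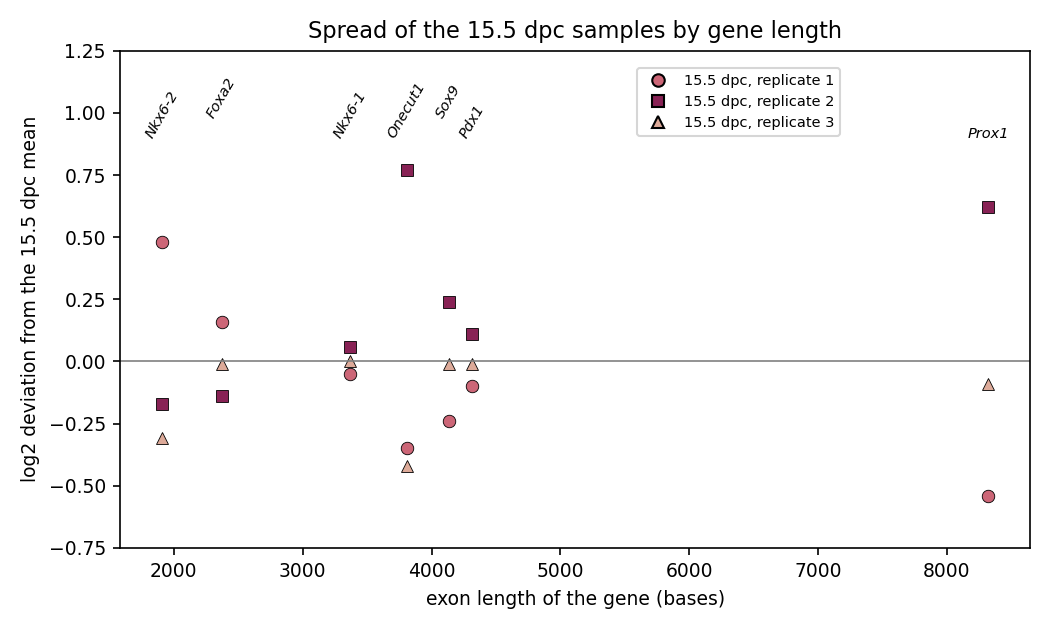
Log2 deviation of each 15.5 dpc sample from its stage mean (y axis) against exon length in bases (x axis), for the 7 genes with a mean above 50 normalised counts. Symbols are the 3 replicates. Replicate 2 is highest for the 5 genes of 3368 bases or more, and replicate 1 for *Nkx6-2* and *Foxa2*.

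Foxa2 is a forkhead factor of endoderm that opens chromatin at early pancreatic enhancers, *Pdx1* among them. *Foxa2* (chr2:148042877-148046969, minus strand, 4 exon blocks) had 965.8, 984.3 and 1009.9 normalised counts at 13.5 dpc and 1444.8, 1173.9 and 1284.4 at 15.5 dpc. The stages did not overlap, and the 13.5 dpc samples were close, with a CV of 2.24%. The mean rose from 987 ± 22.1 to 1301 ± 136 (SD, n = 3), a fold of 1.32 and a log2 fold change of 0.40 (SE 0.10) with an edgeR adjusted p of 0.0317. It was 0.32 without replicate 1 and 0.48 without replicate 2 of 15.5 dpc, and 0.31 with the length trend removed, all past the threshold. Scaled by library size alone it was 0.18 with an edgeR adjusted p of 0.159, and scaled to the epithelium markers it was -0.15. These scalings put the median of all genes at -0.22 and -0.54, so *Foxa2* stayed above that median in both. Without any one of the other 4 samples the adjusted p was 0.106 to 0.136.

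Foxa1, the close relative that shares endoderm functions with Foxa2, was nearly undetected. *Foxa1* (chr12:57540631-57546121, minus strand, 2 exons) had 5, 7 and 7 raw counts at 13.5 dpc and 0, 2 and 4 at 15.5 dpc. Summed over the samples of a stage, *Foxa1* gave 19 counts beside 3614 of *Foxa2* at 13.5 dpc, which is 0.523% of both (95% Clopper-Pearson interval 0.315 to 0.816%). At 15.5 dpc it gave 6 beside 3212, or 0.186% (0.0685 to 0.405%). These intervals cover counting error only and overlap between the stages. Per kb, *Foxa2* was 256-fold higher than *Foxa1* at 13.5 dpc (interval 164 to 425) and 720-fold higher at 15.5 dpc (330 to 1964). *Foxa1* did not pass the count filter, so its change between the stages was not tested.

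*Foxa3*, the third of the family, rose with *Foxa2*. It had 410.0, 425.3 and 418.8 normalised counts at 13.5 dpc and 1082.2, 672.9 and 838.6 at 15.5 dpc, a log2 fold change of 1.05 (SE 0.17) with an edgeR adjusted p of 0.00614. All 15.5 dpc samples were above all 13.5 dpc samples. Its level per kb was 205 ± 3.75 at 13.5 dpc and 424 ± 101 at 15.5 dpc, against 416 and 549 for *Foxa2*. Markers of intestine and stomach, endoderm that also expresses Foxa genes, were mostly low: of 10, only *Vil1*, a microvillus protein, and *Gata5* were counted well enough to test, *Vil1* rose by 1.2 on the log2 scale, and *Fabp2*, *Tff1*, *Gkn1* and *Muc5ac* were at or under 3 counts in every sample. Their part in the Foxa values was not tested.

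Onecut1 acts early in pancreas and duct formation and directly upstream of *Neurog3*. *Onecut1* (chr9:74861921-74891475, plus strand, 3 exons) had 144.9, 143.2 and 251.4 normalised counts at 13.5 dpc and 130.1, 282.2 and 123.4 at 15.5 dpc. Replicate 3 of 13.5 dpc and replicate 2 of 15.5 dpc were high and the other 4 samples low, so the stages overlapped. The log2 fold change was -0.0014 (SE 0.37), with an edgeR adjusted p of 0.998, and the wide error does not show equal levels. Without replicate 1 of 15.5 dpc it was 0.18 and without replicate 2 it was -0.50, neither past the threshold, and with the length trend removed it was 0.046.

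The *Onecut1* value rests on part of the gene. Its last exon (chr9:74889306-74891475, 2170 bases) is wholly covered by *Gm20649* on the same strand, a gene with 0 counts in all 6 samples. By default featureCounts gives reads from bases that 2 genes share on one strand to neither, which leaves 1637 of 3807 exon bases (43%) in the first 2 exons, at the 5′ end. The 2 samples in which *Onecut1* was high are also those with the highest length rho, 0.338 and 0.583, and what sets them apart was not tested. Removal of the length trend took *Onecut1* at 3807 bases, not at the 1637 countable ones, so its values with the trend removed rest on the full length.

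*Onecut2* (chromosome 18) had 17.3, 12 and 12.2 normalised counts at 13.5 dpc and 5.5, 6.1 and 8.8 at 15.5 dpc. These are 14 to 19 raw counts against 4 to 7, and the stages did not overlap. The log2 fold change was -1.0 (SE 0.33), with an edgeR adjusted p of 0.0675, and it was -0.70 with the length trend removed. Without replicate 1 of 15.5 dpc it was -0.89, and without replicate 2 it was -0.90, neither past the threshold. The ratio of *Onecut2* to *Onecut1* overlapped between the stages, with a log2 difference of -0.96 and an exact permutation p of 0.2. *Onecut3* had 61.0, 51.4 and 51.0 normalised counts at 13.5 dpc and 4.2, 16.4 and 5.0 at 15.5 dpc. Its log2 fold change was -2.57 (SE 0.40), and -3.51 without replicate 2 of 15.5 dpc. Both *Onecut2* and *Onecut3* passed the count filter only through their 13.5 dpc samples, where they were high. The values of both, with the adjusted p of *Onecut2*, are therefore a description and not a test of change.

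Levels between genes were compared per kb of countable exon. At 13.5 dpc the order was *Nkx6-1* (822), *Sox9* (614), *Foxa2* (416), *Pdx1* (284), *Prox1* (175), *Onecut1* (110), *Nkx6-2* (27.8), *Foxa1* (1.63) and *Onecut2* (1.03), and no neighbours overlapped in their samples. *Nkx6-1* lay above 94.2% and *Onecut2* above 0.135% of the genes tested. At 15.5 dpc *Nkx6-1* was at 630, *Foxa2* at 549, *Sox9* at 385, *Pdx1* at 315, *Onecut1* at 109, *Prox1* at 108, *Nkx6-2* at 68.5, *Foxa1* at 0.74 and *Onecut2* at 0.51. *Nkx6-1* with *Foxa2*, *Sox9* with *Pdx1*, *Onecut1* with *Prox1*, *Prox1* with *Nkx6-2*, and *Foxa1* with *Onecut2* then overlapped. *Foxa2* and *Sox9* thus changed places, and over all exon bases *Onecut1* would be at 47.2 and 46.9.

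**Figure D4:**
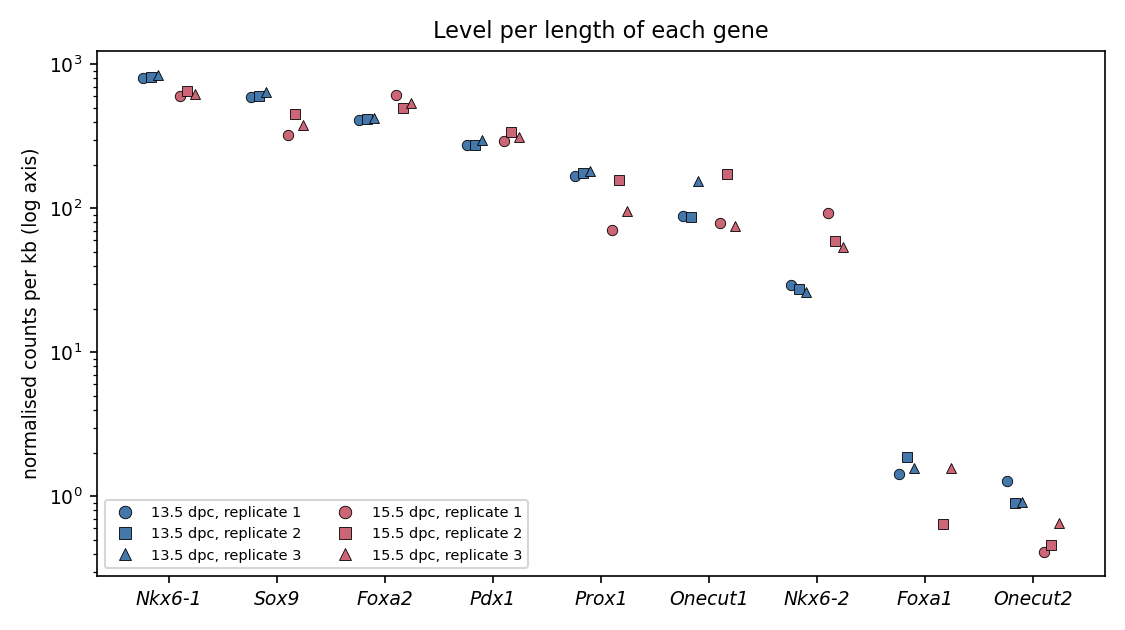
Normalised counts per kb of countable exon (y axis, log scale) for the 9 genes in the order of their 13.5 dpc means, at 13.5 dpc (blue) and 15.5 dpc (red). Symbols are samples, and the 15.5 dpc sample of *Foxa1* with 0 counts is not drawn. *Foxa2* lies below *Sox9* at 13.5 dpc and above it at 15.5 dpc.

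The changes were also read against the study's own thresholds, which ask for an adjusted p of at most 0.1, a fold outside 0.6 to 1.6 and a stage mean of more than 100 normalised counts. *Nkx6-2* was the single gene of the 9 past them, against 9.88% of all genes tested and 10.4% of the protein-coding ones. *Prox1* at a fold of 0.615 and *Sox9* at 0.626 came close to the lower limit without passing it.

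Epithelial and mesenchymal markers moved between the stages as well. Of 15 tested epithelium genes 9 rose and none fell, from *Cdh1*, the epithelial cadherin, at 0.43 to *Ovol1*, an epithelial zinc finger factor, at 2.49, with a median of 0.54. *Cdh1* did not pass with library size only (0.22, edgeR adjusted p 0.28). The summed level of the list went from 37577 to 38970 normalised counts at 13.5 dpc to 50838 to 73636 at 15.5 dpc. Of 14 mesenchyme genes 7 fell and 1 rose, from *Nkx3-2*, a splanchnic mesoderm factor, at -1.70 to *Acta2*, smooth muscle actin, at 0.96, with a median of -0.57, and their sums ranged from 122856 to 138417 and from 88599 to 131944. Scaled to the epithelium list, which shifts the median of all genes to -0.54, the fold changes were -0.91 for *Nkx6-1*, -1.19 for *Sox9*, -1.20 for *Prox1*, -1.52 for *Onecut2*, -0.49 for *Onecut1*, -0.37 for *Pdx1*, -0.15 for *Foxa2* and 0.74 for *Nkx6-2*. The last 4 lay above that shift and the first 4 below it. The part of cell composition in the changes was not tested.

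**Figure D5:**
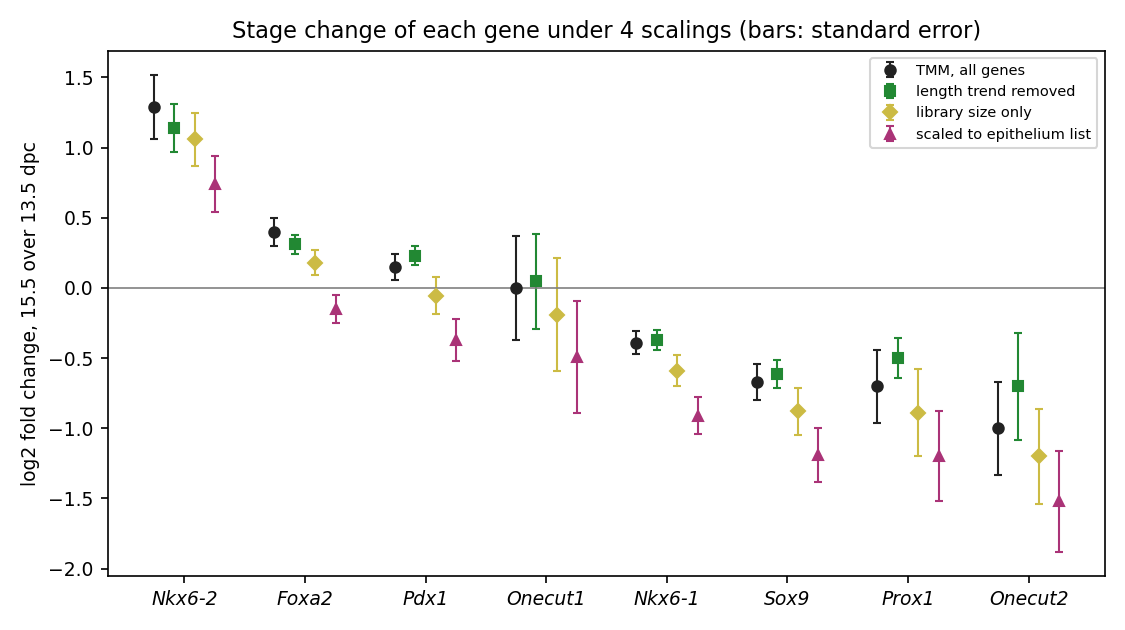
Log2 fold change, 15.5 over 13.5 dpc (y axis), of the 8 tested genes under 4 scalings, with SE bars. *Nkx6-2* is above 0 and *Nkx6-1*, *Sox9*, *Prox1* and *Onecut2* are below 0 in all 4, while *Foxa2*, *Pdx1* and *Onecut1* cross 0.

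Other regulators of the progenitor state split in both directions. Of 21 tested, 4 rose and 5 fell, against 22.3% of all genes changed. Among those that rose were *Ptf1a* (2.07), the cardiac and endodermal factor *Gata4* (1.15) and the hepatocyte nuclear factor *Hnf4a* (0.53). Those that fell were *Sox11* (-1.14) and *Sox4* (-1.01), HMG-box factors of developing tissues, *Hhex* (-0.60), a homeobox factor of the ventral foregut, the Hippo effector *Yap1* (-0.41) and the Notch effector *Rbpj* (-0.33). With the length trend removed neither of the last 2 passed, at -0.14 for *Yap1* (edgeR adjusted p 0.288) and -0.18 for *Rbpj* (0.193), and *Rbpj* did not pass with RLE factors (0.0538) or without a count filter (0.0685). *Hnf4a* did not pass with library size only (0.33, edgeR adjusted p 0.165) or scaled to the epithelium list (0.012, 0.96). Without any one of the 13.5 dpc samples or without replicate 3 of 15.5 dpc, *Hnf4a* (0.0823 to 0.103), *Sox11* (0.076 to 0.107), *Yap1* and *Rbpj* did not pass. The Notch target *Hes1* was at 0.02 (edgeR adjusted p 0.951).

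The lineages that leave the progenitor state were compared from gene lists. All 10 tip and acinar genes passed as higher at 15.5 dpc, from *Myc* (0.38), a growth regulator, to the amylase *Amy2a5* (5.47), with a median of 2.16. *Amy2a5* and *Gp2*, a zymogen granule protein chosen here after its values were seen, were close to the floor of 3 counts at 13.5 dpc, at 1.4 to 3.4 and 1.7 to 2.9 normalised counts. *Pnlip*, a lipase chosen in the same way, had 3.4 to 12.2 at 13.5 dpc and 15.3 to 37.4 at 15.5 dpc. These 3 passed the count filter only through 15.5 dpc, where they were high, so the list count and median are a description and their folds are uncertain. *Myc* did not pass with library size only (0.15, edgeR adjusted p 0.21). Of 15 trunk and duct genes 5 rose and 1 fell, the highest being the mucin *Muc1* (1.53) and the lowest *Spp1* (-0.50), osteopontin, with a median of 0.13. Of 13 endocrine progenitor genes 1 rose and 4 fell, the one that rose being the corepressor *Cbfa2t3* (0.76), with a median of -0.33. *Neurog3* fell, from 2309.8, 2193.2 and 2236.8 normalised counts to 1879.4, 1661.7 and 1830.9, a log2 fold change of -0.33 (SE 0.09, edgeR adjusted p 0.0372). It did not pass without any one of the 13.5 dpc samples or without replicate 3 of 15.5 dpc (adjusted p 0.124 to 0.157).

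Among 149 listed genes, those most like each factor over the 6 samples were named by Pearson r of log2 normalised counts, as a description. These samples share 2 stages and the length trend. Among the genes reported here, *Pdx1* was like *Cdh1* (r = 0.955), and *Nkx6-1* was most like *Col9a1* (0.993) and *Sox5* (0.991), and *Sox9* most like *Pdgfra* (0.995) and *Sox4* (0.992). *Foxa2* was most like *Krt18* (0.998) and *Foxa3* (0.996), and *Nkx6-2* most like *Prss2* (0.972) and *Acta2* (0.970). *Prox1* was most like *Rfx3* (0.992) and *Pkd2* (0.991), *Onecut1* most like *Dcdc2a* (0.935) and *Flt4* (0.927), and *Onecut2* was like *Twist1* (0.935).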

How the data were processed

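Strand-specific poly(A) RNA-seq of wt pancreas was analysed at 13.5 and 15.5 dpc, with 3 samples per stage. Reads were placed on mm10 by the authors with GSNAP, and those with a unique position were assigned to Ensembl gene models by featureCounts (1.4.6 in the submitters' processing notes). The deposited values are raw, unnormalised counts, beside the exon length of each gene. Total counts were 10546028 to 16389237 per sample. All 6 columns of per-sample values were used. None of 312 genes lying wholly within exons of the same strand had 10 or more counts, whereas 28 of 137 on the opposite strand did, so counts were read as strand-specific.

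The main test was the quasi-likelihood test of edgeR 4.0.16 (R 4.3.3, limma 3.58.1) with TMM factors, filterByExpr, no covariates and Benjamini-Hochberg adjustment over the 15578 genes kept, and a gene was called at an adjusted p of 0.05 or less. DESeq2 1.42.0, other scalings and filters, the replicate number as a block, each sample left out, a length trend removed by lowess (span 0.5) and scaling to epithelium markers were alternatives. SE is the size of the log2 fold change over the root of F. Fits were tested on simulated data. Ratios were compared by exact permutation over samples (scipy 1.17.1), and figures drawn with matplotlib 3.10.9. The floor was 3 counts.

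Symbols came from GENCODE by identifier (35449 of 37224 matched) and promoters from a RefSeq table, in which 7 of the 9 genes were matched. The genes and the 15 lists were chosen with earlier results of these data known. Named genes are the 9, their paralogues, *Ptf1a* and *Neurog3*, the called progenitor regulators, the highest and lowest called gene of each other list, and the 2 most similar listed genes per factor. Further genes named beside a list (*Acan*, *Sox5*, *Hes1* and those at the floor) were chosen after their values were seen. Some genes that this rule names are not reported here.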

Additional observations from a re-analysis of the deposited data

How the results depend on the processing

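Of 127 comparisons of the 8 tested genes with an alternative, 94 kept direction and side of the threshold, 16 lost the call, 8 gained one and 9 changed sign. For 36 other named genes, the numbers were 481, 89, 0 and 4 of 574. Among them, *Acan*, *Myc*, *Cdh1* and *Hbb-bs* lost the call in 4 of the 6 fits without 1 sample, and *Epb42*, *Spp1* and *Afp* in 3. *Myc* and *Cdh1* also lost it with library size only (0.15 and 0.22), with upper quartile factors (edgeR adjusted p 0.0538 and 0.0519) and without a count filter (0.0666 and 0.0567), and *Cbfa2t3* with epithelium scaling (0.24). The count of the 9 genes called, 4, ranged from 0 to 5 when 1 sample was left out (0 without replicate 3, and 1 without replicate 1 or 2, of 13.5 dpc, 1 without replicate 3 of 15.5 dpc) and was 1 at an adjusted p of 0.01. It was 6 with the length trend removed, where 5104 genes in all were called, and 6 at an adjusted p of 0.1. The count past the study's thresholds, 1, was 3 with library size only, 4 with scaling to the epithelium list, and 1 to 3 with 1 sample left out (3 without replicate 2 of 15.5 dpc). The count of other progenitor regulators called, 9, was 5 to 14 with 1 sample left out (14 without replicate 2 of 15.5 dpc), 16 with scaling to the epithelium list and 5 at an adjusted p of 0.01. Over all genes, 3467 calls became 1235 to 7620 with 1 sample left out and 9188 with scaling to the epithelium list, a scaling that moves the median of all genes. The share of all genes past the study's thresholds was taken in the main fit only (9.88%). Shares at an adjusted p of 0.01 or 0.1 were not taken. Counts of the listed genes in these settings therefore have no share beside them and describe those genes only. The cause of the other differences was not tested.

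Signs changed for *Pdx1* with library size only (-0.055) and epithelium scaling (-0.37), for *Foxa2* with epithelium scaling (-0.15), and for *Prox2* with both (-0.079 and -0.40). They also changed for *Myc* (-0.17) and *Cdh1* (-0.091) with epithelium scaling. *Onecut1* was at 0.012 with RLE factors, 0.00023 with DESeq2, 0.046 with the length trend removed, -0.50 without replicate 2 of 15.5 dpc, 0.32 without replicate 3 of 13.5 dpc, and 0.18 and 0.21 without replicates 1 and 3 of 15.5 dpc. *Prox1* passed with DESeq2 (adjusted p 0.0451). *Onecut2* crossed the threshold with library size only (-1.20, edgeR adjusted p 0.0384) and epithelium scaling (-1.52, edgeR adjusted p 0.0102). For *Onecut2* this is a description, since it passed the count filter only through 13.5 dpc, where it was high. The ratio of *Sox9* to *Neurog3* moved to -0.10 with the length trend removed. The ratio of *Foxa2* to *Foxa1* could not be computed, since 1 sample had 0 counts of *Foxa1*.

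Samples with the same replicate number did not deviate together (r of 0.211, -0.209 and 0.034 for replicates 1, 2 and 3), so the numbers were not taken as pairs. When the number entered the fit as a replicate block, 2676 genes in all and 3 of the 9 were called, *Nkx6-1* (edgeR adjusted p 0.061) and *Foxa2* (0.0729) not passing and *Prox1* passing (-0.78, 0.0481). Under this block *Sox8* (0.0567), *Sox10* (0.0953), *Neurog3* (0.09), *Yap1* (0.0604), *Rbpj* (0.102), *Myc* (0.0948) and *Cdh1* (0.0617) did not pass either. In the same blocked fit 2 genes of the 9 were past the study's thresholds and 7 other regulators were called. In the blocked pairing the differences of the ratios were the same (1.64, -0.96, -2.42, -2.72, 0.84 and -0.36), with exact sign-flip p values of 0.25 or more, the smallest possible. *Foxa1*, at 0 to 7 counts per sample, was too low to test, and *Onecut2*, at 4 to 19 counts, was the lowest gene tested of the 9.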

Other observations

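Other cell types of the tissue were measured from marker lists. Of 10 blood endothelium genes 0 passed the edgeR test, 2 had an unadjusted p under 0.05 and 0 passed with DESeq2, with a median log2 fold change of 0.10 and summed levels of 6540 to 7125 normalised counts at 13.5 dpc and 6715 to 7625 at 15.5 dpc. Of 8 erythroid genes 2 rose and 1 fell, between the globin *Hbb-bs* (1.35) and the red cell membrane gene *Epb42* (-1.27), and the sums ranged from 13158 to 14810 and from 15689 to 43966. Of 8 leukocyte genes 2 fell, the macrophage genes *Csf1r* (-0.45) and *Adgre1* (-0.64), with sums of 1632 to 1717 and 1403 to 1915. Neither passed without any one of the 13.5 dpc samples or without replicate 3 of 15.5 dpc (edgeR adjusted p 0.0864 to 0.12), or with the replicate number as a block (0.0563 and 0.0524). Over all genes tested, 22.3% were called.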
